A study of Mus musculus with 3 samples.

Results

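A set of 10 transcripts that stand out in shallow microglia barcodes of mouse glioblastoma (GBM) tissue was followed across sequencing depth, libraries and cell classes. The 10 genes, out of 31053 in the count tables, are Malat1, Neat1, Gm26917, Gm43221, Gm26778, Gm26699, Phykpl, B430010I23Rik, Adap2os and Gm26737, and each was found by its symbol. They were chosen on their share of unique molecular identifiers (UMIs, distinct captured RNA molecules) in these same microglia, so their microglia values by depth are a description and carry no test. Tests are given for the same genes in other cell classes, which the choice by microglia shares did not use.

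The data are 3 droplet single-cell RNA-seq libraries of live cells sorted from pooled brain tissue around the injection site 4 weeks after tumour implantation. All mice were wild-type C57BL/6 females aged 6 to 8 weeks, and all received brain tumor-initiating cells (BTICs) of a line made from NPcis mice, which carry mutations in Nf1 and Trp53, with a luciferase and GFP reporter. Mice of the vehicle library (labelled control, replicate 2) were injected with saline, and those of niacin libraries 1 and 2 (labelled replicates 1 and 2) with niacin at 100 mg/kg daily from day 7, by the peritoneal route. The sample labels describe tissue of 4 brains per pool and the methods 5 mice, so a library is a pool and the spread between libraries is not the spread between animals. With 1 vehicle library, niacin was not compared with vehicle by any test.

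The libraries held 2145 to 2532 barcodes and 8301228 to 10359526 UMIs, with a median of 1593 to 2504 UMIs per barcode. Of the distinct barcode sequences, 924 occurred in more than 1 library and 452 in all 3. The deepest copy of a shared barcode had a median of 11182 UMIs and its other copies a median of 648, a ratio of 15.7. All 2300 copies were left out. Of the 4647 barcodes found in 1 library, 3478 had 200 or more detected genes, no more than 20% mitochondrial UMIs, and were kept.

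Microglia were barcodes with UMIs of at least 2 of the 6 markers P2ry12, Tmem119, Sall1, Siglech, Gpr34 and Olfml3. This gave 399 barcodes in the vehicle library, 644 in niacin library 1 and 939 in niacin library 2, in all 1982 barcodes with 60% of the kept UMIs. The label held for genes that did not define the class. A list of 16 other microglia mRNAs, among them Cst3, Ctsd and C1qa, made up 4.26% to 10.6% of the UMIs of microglia across libraries and depths. Marker lists of 11 other cell types were each summed at 249 UMIs per 1000000 (counts per 1000000, CPM) or less in microglia, against 8836 for the microglia markers, and over the 3 libraries 3.13% of microglia or fewer had UMIs of 2 markers of any other type. Markers of monocytes and macrophages differed between libraries, since 14.6%, 5.56%, 7.35% and 15.5% of microglia of the vehicle library had UMIs of 2 of them, from the shallowest to the deepest of the depth bins used below, against 0% to 1.87% in the niacin libraries. Their part in the results was not tested, but without barcodes that had 2 markers of another class the log2 ratio of Malat1 between 1000 to under 2000 and at least 4000 UMIs was 1.23, against 1.26 with them. The neuron and oligodendrocyte lists stood at 1.58 and 62.2 CPM.

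Most mRNAs are exported to the cytoplasm, whereas several long noncoding RNAs stay in the nucleus. Malat1 is an abundant nuclear RNA of nuclear speckles, the bodies that store splicing factors, and Neat1 is the scaffold of paraspeckles, which form beside them. Antisense RNAs are transcribed from the strand opposite to a gene and can be complementary in sequence to its RNA. Droplet kits of this type prime reverse transcription on poly(A) tails, and stretches of A inside a transcript can be primed as well. Microglia are the resident macrophages of the brain and were the most abundant class here.

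The name "nuclear and unannotated transcripts" holds for the members in part. Malat1 (chr19:5795690-5802672, minus strand, GRCm38, GENCODE M21) and Neat1 (chr19:5824708-5845478, minus strand) are annotated as long intergenic RNAs and lie 22036 bases apart. Gm26917 (chr17:39843013-39846341, plus strand) is annotated as a long intergenic RNA 12 bases from a gene model of ribosomal RNA and 617 bases from Gm42418, a noncoding gene that overlaps ribosomal RNA. Malat1 overlaps the short opposite-strand gene Gm37376, and the other 7 members each overlap a gene on the opposite strand. Phykpl (chr11:51584757-51604489, plus strand) encodes a phospho-lyase enzyme and is neither noncoding nor unannotated. Of its 8 annotated transcripts, 5 are of the retained-intron kind and 2 are coding. Gm26778 (chr14:102978220-102982528, plus strand) and Gm26699 (chr6:38551531-38554007, minus strand) have 100% and 99.7% of their exonic bases inside exons of their opposite-strand partners, Kctd12, which encodes a partner protein of GABA-B receptors, and Luc7l2, which encodes a splicing factor. B430010I23Rik (chr8:41017468-41024216, plus strand) has 18.7% of its exonic bases in exons of Mtus1, a gene for a microtubule-associated protein. Adap2os (chr11:80158861-80177629, minus strand) has 14.8% in exons of Adap2, which encodes a protein with an ArfGAP domain, and Gm26737 (chr9:44112923-44121960, plus strand) has 13.7% in exons of Rnf26. Phykpl shares 8.34% of its exonic bases with exons of Hnrnpab, the gene of an RNA-binding protein. Gm43221 (chr3:109000024-109002094, plus strand) lies in an intron of Fam102b and shares no exonic base with it. The strand setting of the counting is not given in the sources used here, so UMIs of the overlapping pairs could be assigned to either partner, and these members are uncertain to that extent.

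Stretches of A inside the transcripts are shown because the kit primes on A, with the run of at least 10 A in capitals and its flanks in lower case. They are written 5′ to 3′ on the transcript strand. They were found in 5 of the 10 members, and the 4 shown lie, in this order, at chr19:5795976-5796011, chr6:38552855-38552905, chr11:51603015-51603044 and chr11:80177409-80177457 of GRCm38, each within 1 exon.
Malat1: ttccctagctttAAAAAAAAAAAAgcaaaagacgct
Gm26699: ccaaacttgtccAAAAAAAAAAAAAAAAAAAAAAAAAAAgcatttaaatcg
Phykpl: catttttAAAAAAAAAAAAAAAAggtaaaa
Adap2os: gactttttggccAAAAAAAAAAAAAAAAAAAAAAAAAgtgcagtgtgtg

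The runs shown are of 12, 27, 16 and 25 A, and that of Malat1 stands 298 bases before the annotated 3′ end. The longest run was 9 A in Gm43221 and Gm26778, 7 in Neat1 and Gm26737 and 4 in Gm26917. Over all 30934 genes with a transcript in the annotation, 17% held a run of at least 10 A, 8.61% of 8301 noncoding genes and 20.8% of 21897 protein-coding genes. The members' longest transcripts had a median of 2839 bases against 927 for noncoding genes, and a longer transcript has more places for a run. Introns and the other strand were not searched. Whether priming at these runs contributed UMIs was not tested.

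Malat1 was the most abundant member, at 489777 UMIs in microglia. Its share, the UMIs of the gene per 1000000 UMIs summed over the barcodes of a depth bin (CPM), was 41699, 70296, 75545 and 33835 in the vehicle library at 500 to under 1000, 1000 to under 2000, 2000 to under 4000 and at least 4000 UMIs per barcode. In niacin library 1 the same shares were 86765, 141765, 98415 and 55992. Niacin library 2 gave 105788, 124858, 92436 and 47681. The deepest barcodes had the lowest Malat1 share in 3 of 3 libraries, and the highest share fell at 1000 to under 2000 UMIs in the niacin libraries and at 2000 to under 4000 UMIs in the vehicle library. The bins held 48, 90, 68 and 193 microglia in the vehicle library, 50, 139, 202 and 253 in niacin library 1 and 102, 214, 142 and 481 in niacin library 2. From at least 4000 to 1000 to under 2000 UMIs the log2 ratio of Malat1 was 1.26 ± 0.18 (SD, n = 3 libraries), a 2.4-fold higher share. For the shallowest bin it was 0.69 ± 0.43. Averaged over libraries, the Malat1 share was highest at 1000 to under 2000 UMIs, at 112307 ± 37352 CPM, and not in the shallowest bin. With the shared barcodes kept, the log2 ratios of these bins were 1.39 and 0.39.

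The other 9 members together followed Malat1 at a far lower level. Their summed share was 2503 ± 529, 3520 ± 902, 2163 ± 104 and 1245 ± 179 CPM over the 4 bins (SD, n = 3 libraries). It was highest at 1000 to under 2000 UMIs and lowest at 4000 UMIs or more in 3 of 3 libraries. The log2 ratio of 1000 to under 2000 over at least 4000 UMIs was 1.27 in the vehicle library, 1.63 in niacin library 1 and 1.54 in niacin library 2.

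**Figure D1:**
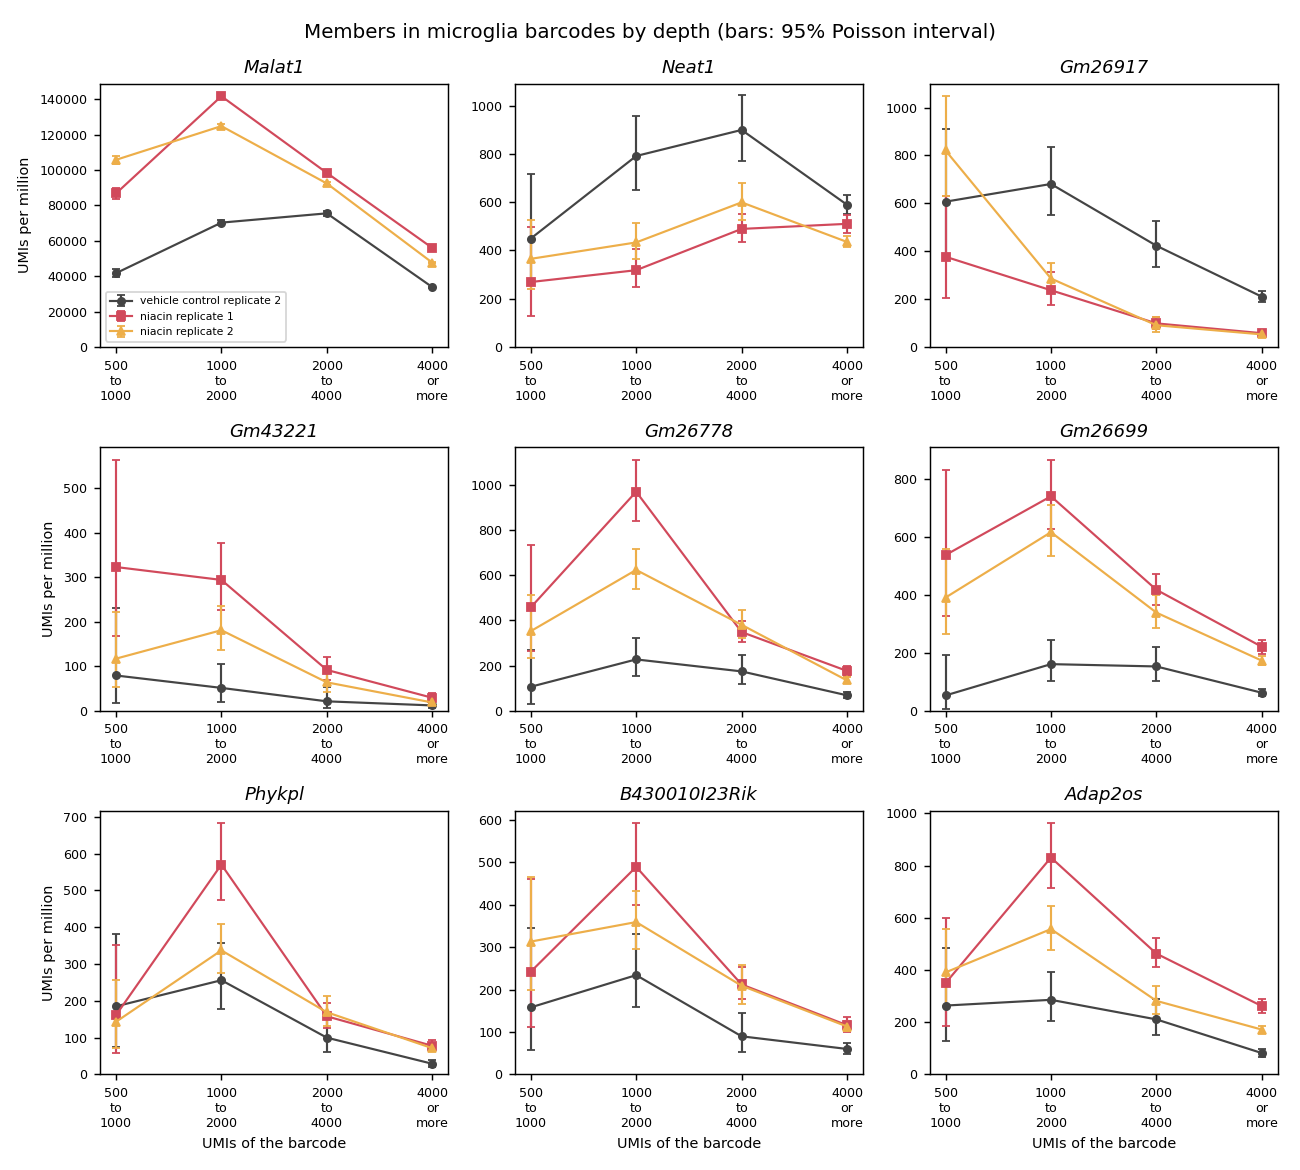
CPM of each member in microglia (vertical axes) against the depth bin in UMIs per barcode (horizontal axes), with 1 line per library and exact Poisson 95% intervals for counting error. Malat1, Gm26778, Gm26699, Phykpl, B430010I23Rik and Adap2os peak at intermediate depth and are lowest or near their lowest in the deepest bin, Gm26917 falls with depth, and Neat1 does not follow them.

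The opposite-strand members Gm26778, Gm26699, B430010I23Rik and Adap2os peaked in the same bin. Gm26778 stood at 106, 227, 174 and 68.1 CPM in the vehicle library, at 457, 969, 348 and 176 in niacin library 1 and at 352, 623, 380 and 134 in niacin library 2. Adap2os stood at 264, 286, 211 and 82, at 350, 831, 463 and 262, and at 391, 557, 282 and 172 in the same order of libraries. Both were highest at 1000 to under 2000 UMIs and lowest at 4000 UMIs or more in 3 of 3 libraries, with ratios of 4.4-fold and 3.29-fold between these bins. The log2 ratio of Adap2os varied least between libraries of all members, at 1.72 ± 0.07 (SD, n = 3).

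B430010I23Rik had shares of 158, 234, 89.9 and 60.1 CPM in the vehicle library, 242, 489, 212 and 116 in niacin library 1 and 313, 359, 209 and 113 in niacin library 2. Gm26699 had 52.8, 161, 153 and 62.1, then 538, 741, 418 and 221, then 391, 617, 339 and 173. These were again highest at 1000 to under 2000 UMIs in 3 of 3 libraries. The lowest bin of Gm26699 in the vehicle library was the shallowest, where it rests on 2 UMIs. Ratios of 1000 to under 2000 over at least 4000 UMIs were 3.73-fold for B430010I23Rik and 3.14-fold for Gm26699.

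Phykpl differed more steeply between deep and intermediate barcodes. It had 185, 256, 100 and 29.1 CPM in the vehicle library, 161, 570, 158 and 77.8 in niacin library 1 and 143, 337, 169 and 71.4 in niacin library 2. The ratio of 1000 to under 2000 over at least 4000 UMIs was 6.73-fold. Gm43221, the antisense RNA within an intron, had the highest ratio, 7.53-fold or 2.91 ± 0.70 on the log2 scale. Its shares were 79.2, 51.3, 21.1 and 11.9, then 323, 294, 91.7 and 29.1, then 117, 181, 63.8 and 18.5 CPM. Gm43221 was highest in the shallowest bin in the vehicle library, where it rests on 3 UMIs, and in niacin library 1. No ratio for the shallowest bin is given for Gm43221 and Gm26699 because of these low counts.

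Gm26917, the neighbour of ribosomal RNA, showed another pattern. It stood at 607, 681, 423 and 210 CPM in the vehicle library, at 377, 237, 98.5 and 57.5 in niacin library 1 and at 821, 286, 90.8 and 52.5 in niacin library 2. In the niacin libraries the share fell at each step of depth, and in the vehicle library the first pair of bins was close. The log2 ratio of 500 to under 1000 over at least 4000 UMIs was 2.74 ± 1.22 (SD, n = 3), with the vehicle library at 1.53 and niacin library 2 at 3.97. Gm42418, which lies beside it, had mean shares of 34411, 15659, 10351 and 10970 CPM over the bins.

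The data went against the description for Neat1 and Gm26737. Neat1 had 449, 791, 899 and 589 CPM in the vehicle library, 269, 318, 489 and 510 in niacin library 1 and 365, 433, 599 and 435 in niacin library 2. Its share in the shallowest bin was below that at 4000 UMIs or more in 3 of 3 libraries, with a log2 ratio of −0.52 ± 0.35 (SD, n = 3). At 1000 to under 2000 UMIs the log2 ratio was −0.09 ± 0.56, with the vehicle library at 0.43 and niacin library 1 at −0.68. Gm26737 had 14 UMIs in all microglia, 0 of them in the shallowest bin. Of its 110 UMIs in all barcodes, 81 lay in 1 T or NK barcode of niacin library 1 that had 1786 UMIs.

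The members also differed in level between libraries. At 1000 to under 2000 UMIs the vehicle library had the lowest share of Malat1, Gm43221, Gm26778, Gm26699, Phykpl, B430010I23Rik and Adap2os and the highest share of Neat1 and Gm26917. Niacin library 1 was the highest of the 3 libraries for the first 7 genes. Treatment and library cannot be told apart in 1 vehicle pool, and this difference was not tested.

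Depth changes the chance of seeing a rare RNA, so each microglia barcode was also thinned at random to 500 UMIs, and the values vary between draws. The share of barcodes with a UMI of any of the 8 members other than Malat1 and Neat1 was then 47.9%, 56.7%, 42.6% and 18.1% over the bins of the vehicle library. In niacin library 1 it was 52%, 84.9%, 59.4% and 43.9%, and in niacin library 2 it was 59.8%, 70.6%, 52.1% and 31.4%. The share was highest at 1000 to under 2000 UMIs and lowest at 4000 UMIs or more in 3 of 3 libraries. Before thinning it was 58.3%, 80%, 89.7% and 91.7% in the vehicle library, 58%, 95%, 93.6% and 98% in niacin library 1 and 70.6%, 92.1%, 88% and 96.7% in niacin library 2, values that depend on the depth of the barcodes as well.

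T and NK cells, thinned likewise, had a UMI of any of the 8 members in 25.5%, 27.9% and 33.3% of barcodes at 1000 to under 2000 UMIs and in 13.3%, 13.9% and 9.89% at 4000 UMIs or more, in the vehicle library and niacin libraries 1 and 2. Choroid plexus epithelium had 0 of 26, 0 of 47 and 0 of 87 barcodes at 2000 UMIs or more. The draws differ between depth groups, since 1 of 49 of these barcodes in niacin library 2, those of 4000 UMIs or more, had such a UMI. Thinned to 1000 UMIs, the choroid plexus counts at 2000 UMIs or more were 2 of 26, 0 of 47 and 1 of 87. Before thinning these choroid plexus shares were 15.4%, 4.26% and 10.3%. Those of T and NK cells were 54.9%, 58.1% and 61.1% at 1000 to under 2000 UMIs and 80.5%, 63.9% and 64.8% at 4000 UMIs or more. The thinned microglia shares at 1000 to under 2000 UMIs stood above the thinned shares of these classes in every library. The choice of the members by microglia shares favours this order, so it is a description. The part of RNA that is free in the suspension was not tested. Before thinning, the median barcode of 1000 to under 2000 UMIs had 1457 to 1536 UMIs in microglia and 1405 to 1467 in T and NK cells, and that of choroid plexus epithelium of 2000 UMIs or more had 3654 to 4704.

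Among single microglia barcodes of 1000 to under 2000 UMIs the median Malat1 share was 7.12% in the vehicle library, 14.5% in niacin library 1 and 12.5% in niacin library 2. At 4000 UMIs or more the medians were 3.17%, 5.35% and 4.64%. The highest share of a single barcode was 28.9%, in niacin library 1. The median of the shallower bin thus exceeded the median of the deepest bin in each library.

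**Figure D2:**
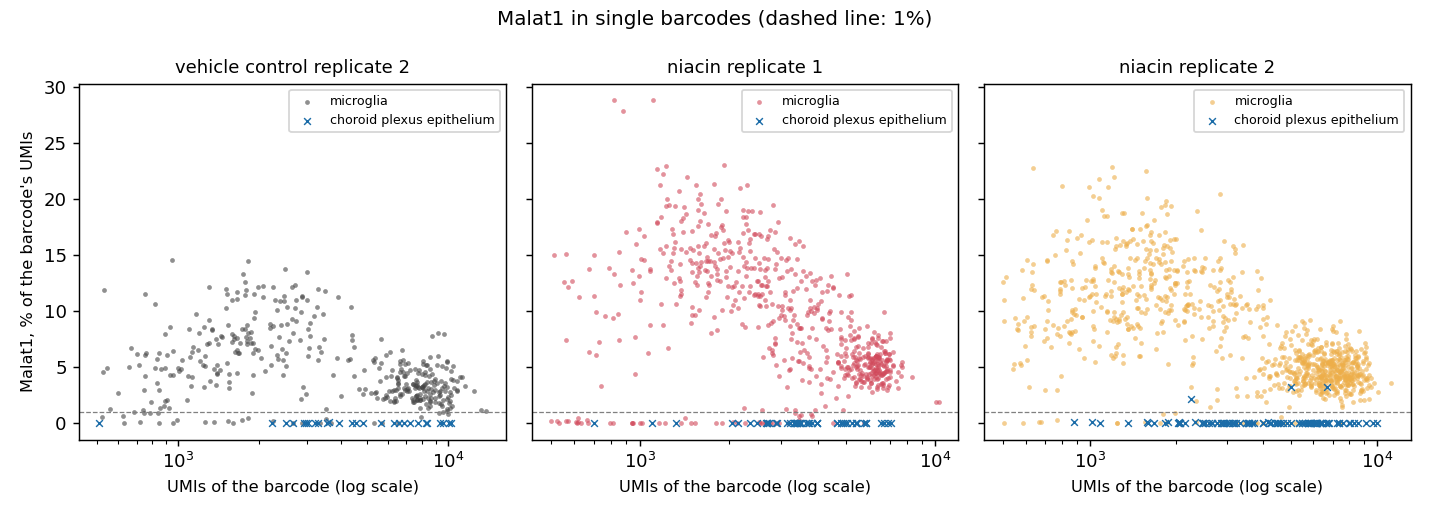
Malat1 as a percent of the UMIs of each barcode (vertical axis) against the UMIs of the barcode (horizontal log axis), with 1 panel per library. Each microglia barcode is a point and each choroid plexus epithelium barcode a cross, and the dashed line marks 1%. Most microglia points lie higher between 1000 and 4000 UMIs than at greater depth. Some microglia points and most of the crosses lie close to 0% in every library.

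A minority of microglia had almost no Malat1. Barcodes with under 1% Malat1 were 16 of 138 (11.6%) of those of 500 to under 2000 UMIs in the vehicle library, 27 of 189 (14.3%) in niacin library 1 and 12 of 316 (3.8%) in niacin library 2. At 2000 UMIs or more they were 13 of 261, 25 of 455 and 16 of 623. The division at 1% is a range on a continuous share. Between 0.5% and 2% lay 12, 0 and 2 of the shallow barcodes and 27, 14 and 9 of the deep ones.

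The shallow barcodes low in Malat1 were also low in the 8 members other than Malat1 and Neat1. These summed to 0 UMIs in the vehicle library, where 3 UMIs would be 177 CPM, against 1994 CPM in the other shallow microglia. In niacin library 1 the shares were 274 and 4320 CPM, from 7 UMIs in the low barcodes, and in niacin library 2 they were 137 and 2982 CPM, from 2 UMIs. The members' share was lower in the barcodes low in Malat1 in 3 of 3 libraries. Among deep barcodes it was 261 against 614 CPM, 262 against 1219 and 87.5 against 839. The groups also differed in depth. Shallow barcodes low in Malat1 had a median of 900, 811 and 1244.5 UMIs, against 1303, 1397.5 and 1231.5 in the other shallow ones. The deep medians were 5319, 2958 and 3786 against 6957, 4740.5 and 6248. The part of depth in the members' shares was not tested here.

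Ribosomal protein mRNAs and microglia mRNAs had the opposite order in these shallow barcodes. Ribosomal protein mRNAs made up 10.1%, 8.79% and 12.6% of the UMIs of shallow barcodes low in Malat1 and 2.86%, 2.36% and 2.34% of the other shallow ones. The 16 microglia mRNAs made up 8.7%, 12.8% and 12.9% against 3.98%, 6.23% and 6.34%. At 2000 UMIs or more the microglia mRNAs did not keep this order, at 4.62%, 14.2% and 10.6% against 7.17%, 10% and 10.5%. Mitochondrial UMIs showed no common order, at 4.81%, 5.16% and 6.94% against 7.52%, 4.86% and 7.45%. All of these shares have the Malat1 UMIs in their denominator.

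**Figure D3:**
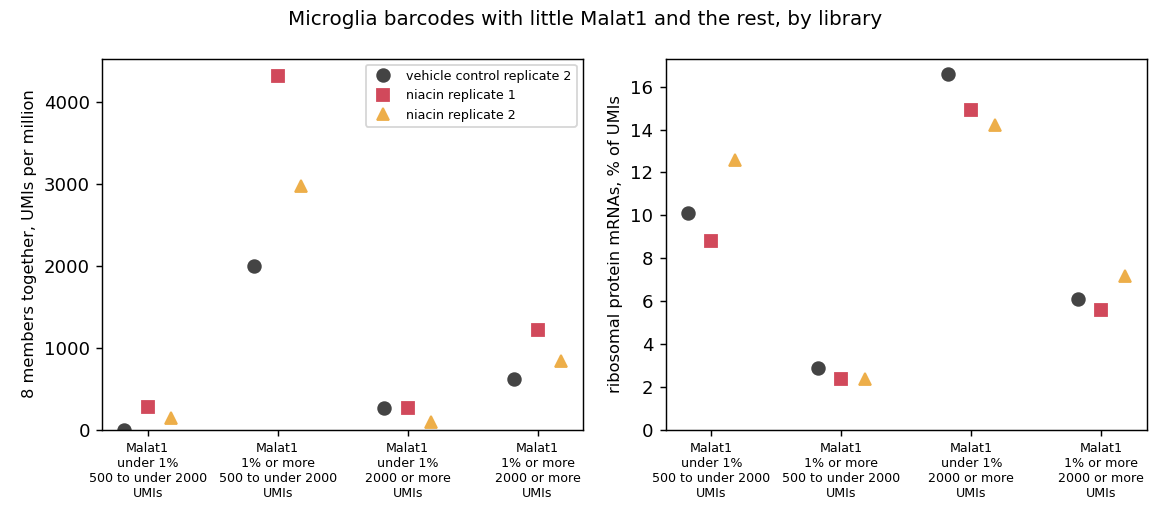
Share of UMIs (vertical axes) in shallow and deep microglia of under 1% Malat1 and of 1% or more, for the 8 members and the ribosomal protein mRNAs, with 1 point per library. The 8 members lie lower and the ribosomal protein mRNAs higher in the barcodes low in Malat1, in all 3 libraries and at both depths.

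Within the microglia of 1000 to under 2000 UMIs, Malat1 and the members were compared barcode by barcode, as a description over barcodes of 1 library. Spearman's rho of the Malat1 share with the ribosomal protein share was −0.57, −0.39 and −0.15 in the vehicle library and niacin libraries 1 and 2 (n = 90, 139 and 214 barcodes). With the share of the 8 members it was −0.18, 0.28 and 0.38, a weak relation without a common sign. With the UMIs of the barcode it was 0.32, 0.02 and 0.07. The points share a library, and shares that sum to a whole are not free of each other.

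The members did not move alone. Over the 5971 genes with at least 200 microglia UMIs, the median log2 ratio of 1000 to under 2000 over at least 4000 UMIs was −0.15 (computed with 10 CPM added to each share), and 1288 genes were higher and 2236 lower in 3 of 3 libraries. Of the members 9 were among these genes, 8 were higher and 0 lower in 3 of 3 libraries, with a median of 1.79, and the rule that chose the members fixes this count. Of 13 listed nuclear or ribosomal-RNA-overlapping noncoding genes that were counted, 6 had enough UMIs, of which 5 were higher in 3 of 3 libraries with a median of 0.96. Among them Xist, the RNA that coats the inactive X chromosome, had mean shares of 4180, 5045, 3984 and 2147 CPM over the bins, and Kcnq1ot1, an imprinted antisense RNA, had 377, 520, 400 and 216.

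Genes of RNA processing were in part higher at intermediate depth. Of 12 mRNAs with known intron retention 10 were higher and 0 lower in 3 of 3 libraries, with a median log2 ratio of 0.74. Ccnl1, a cyclin of nuclear speckles, had a log2 ratio of 0.99 ± 0.22 (SD, n = 3), and Clk1, a kinase of splicing factors, 0.77 ± 0.26. Of 15 genes for speckle and paraspeckle proteins 7 were higher and 2 lower, with a median of 0.23. Son, a speckle protein, was at 0.87 ± 0.40 and Tra2b, a splicing regulator, at 0.71 ± 0.19.

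Mitochondrial transcripts were higher in 3 of 3 libraries for 13 of 13 genes, with a median log2 ratio of 1.60. Their median share per barcode over the 4 bins was 4.93%, 7.38%, 5.39% and 2.21% in the vehicle library, 4.09%, 3.97%, 2.24% and 1.31% in niacin library 1 and 8.19%, 6.31%, 3.44% and 1.68% in niacin library 2. Their part in the members' pattern was not tested beyond leaving the mitochondrial UMIs out of the total, after which the log2 ratio of Malat1 was 1.33. Ribosomal protein mRNAs were lower in 3 of 3 libraries for 83 of 89 genes and higher for 2, with a median of −1.38. Of the 16 microglia mRNAs 14 were lower and 0 higher, with a median of −0.59. Cst3, which encodes cystatin C, was at −1.19 ± 0.31 and C1qa, which encodes a chain of complement C1q, at −0.59 ± 0.12. Of 13 immediate early genes 8 were higher and 2 lower, with a median of 0.33, and of 2 small nucleolar RNA host genes 0 were higher and 1 lower.

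The genes whose microglia profile was most like that of the members were ranked by Pearson's r of log2 shares over 12 points, 4 bins in 3 libraries, among 5948 candidates. The points share libraries and have no p. Tsix, the antisense RNA of Xist, was first, with r = 0.97 and mean shares of 322, 652, 298 and 167 CPM. Next were Pbx3 at 0.94, Gm11713 at 0.93, Gm32036 at 0.92 and Ier5 at 0.90. Aste1, Hnrnpa2b1, Atp8a2, Smad7 and Arhgap45 followed at 0.87 to 0.89. Among the least alike were Ywhae at −0.96 and Rpl38, Btf3 and Marcks at −0.95. Of the members, Gm26778 and Adap2os had r = 0.94 with the members' mean profile, Neat1 had −0.38 and Gm26917 0.34. Between single members the highest r was 0.96, of Malat1 with Gm26778, and the lowest was −0.73, of Neat1 with Gm43221.

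The opposite-strand partners give the members' counts a reference at the same locus. The ratio of member to partner UMIs is read across depth and not as a comparison of levels between genes, since 3′ counts are not per length. The members were chosen on their shares in these microglia, so a higher ratio in shallow barcodes is favoured by that choice and is a description. In microglia the ratio of Gm26778 to Kctd12 at 1000 to under 2000 UMIs was 0.157 in the vehicle library, 1.03 in niacin library 1 and 0.555 in niacin library 2, against 0.0435, 0.133 and 0.105 at 4000 UMIs or more. For Gm43221 over Fam102b it was 0.108, 1.17 and 0.46 against 0.0301, 0.0919 and 0.0531. These ratios were higher in the shallower bin in 3 of 3 libraries, while the partners themselves had mean log2 ratios of −0.26 ± 0.20 for Kctd12 and 0.04 ± 0.31 for Fam102b (SD, n = 3).

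Phykpl to Hnrnpab stood at 1, 3 and 3.21 at 1000 to under 2000 UMIs and at 0.166, 0.479 and 0.444 at 4000 UMIs or more. B430010I23Rik to Mtus1 stood at 0.615, 1.84 and 1.61 and at 0.224, 0.476 and 0.508. For Adap2os over Adap2 the ratios were 0.487, 1.42 and 0.897 against 0.241, 0.635 and 0.465. All 3 pairs had the higher ratio in the shallower bin in 3 of 3 libraries, which the choice of the members favours here too.

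Gm26699 over Luc7l2 was the pair with the smallest change. It was 0.0777, 0.65 and 0.394 at 1000 to under 2000 UMIs against 0.0721, 0.294 and 0.225, and in the vehicle library these were close. Luc7l2 itself was higher in the shallower bin, with a log2 ratio of 0.96 ± 0.33 (SD, n = 3). Adap2 was also higher, at 0.66 ± 0.15. The ratio was lower in the vehicle library than in both niacin libraries for all 6 pairs in both bins.

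**Figure D4:**
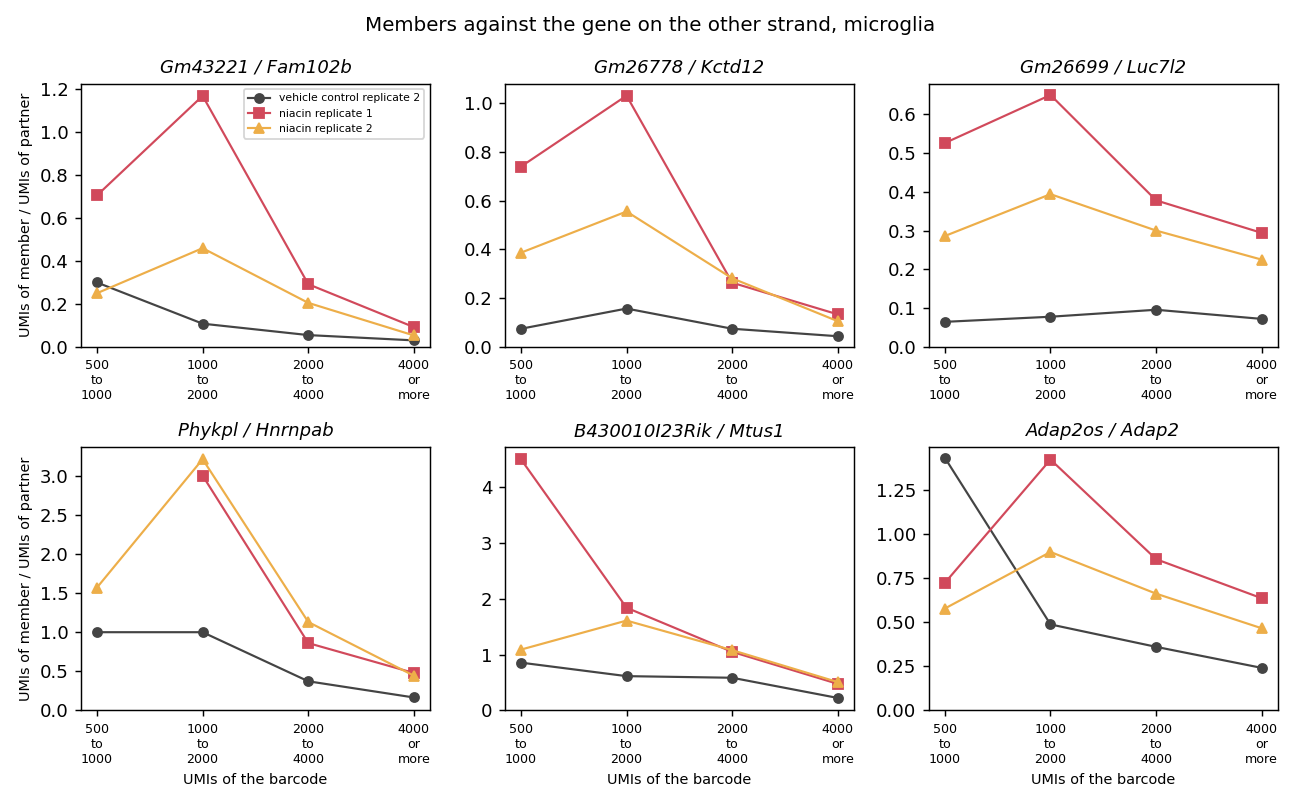
Ratio of the UMIs of a member to those of its opposite-strand partner in microglia (vertical linear axes) against the depth bin in UMIs per barcode (horizontal axes), with 1 line per library and 1 panel per pair. The ratio is higher at 1000 to under 2000 than at 4000 UMIs or more in all 3 libraries for each of the 6 pairs, least so for Gm26699 over Luc7l2 in the vehicle library.

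The other cell classes held little of several members. Microglia had 57% of the kept barcodes and 60% of their UMIs, and they held 96.7% of the kept Gm43221 UMIs, 95.7% of B430010I23Rik, 95.4% of Adap2os and 93.7% of Gm26778. The share was 86.7% for Gm26699, 80.1% for Phykpl, 70.3% for Malat1, 62.7% for Neat1, 48.6% for Gm26917 and 14.6% for Gm26737. The first 4 genes summed to 300, 913 and 602 CPM in microglia and to 8.92, 11.9 and 5.54 in T and NK cells, in the vehicle library and niacin libraries 1 and 2. In monocytes and macrophages the sums were 85.6, 127 and 43.5, and in neutrophils 93.7, 202 and 75.8. Each class was below microglia in every library. The choice of the members by microglia shares favours this order, so it is a description. Over all libraries, the opposite-strand partners of these 4 genes were also higher in microglia than in T and NK cells. Fam102b had 351 against 13.3 CPM, Kctd12 1353 against 43.5, Mtus1 234 against 2.56 and Adap2 414 against 6.14.

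Shallow T and NK cells offer a depth comparison in cells that the choice by microglia shares did not use. Its depth groups are wider than the bins compared in microglia, so its fold changes and the microglia ratios are not of the same contrast. Barcodes of 500 to under 2000 UMIs (59, 48 and 20 in the vehicle library and niacin libraries 1 and 2) were summed per library and compared with those of 2000 UMIs or more (140, 49 and 104). A quasi-likelihood test in edgeR, blocked on the library, tested 3058 genes and called 13.6% higher and 18.0% lower in shallow barcodes at an adjusted p under 0.05. Scaled by library totals alone, 711 genes were higher and 447 lower, against 415 and 550 with TMM scaling, and the median log2 fold change was 0.36 against 0.10.

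Of the 10 members 5 passed the filter on low counts, and 4 of these were called higher. A gene can pass the filter through its shallow sums alone, so this count supports nothing by itself. Gm43221, Gm26778, B430010I23Rik, Adap2os and Gm26737 did not pass, the first 4 of which summed to 8, 4 and 4 UMIs in T and NK cells of the libraries. Malat1 had 86917, 142419 and 134921 CPM in the shallow sums and 30136, 41407 and 31400 in the deep ones. The groups did not overlap, and the log2 fold change was 1.55 (SE 0.28, edgeR adjusted p = 0.000335). Without niacin library 1 the edgeR adjusted p of Malat1 was 0.283 and without niacin library 2 it was 0.335, at log2 fold changes of 1.39 and 1.41.

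Neat1, which was not higher in shallow microglia, was higher in shallow T and NK cells. It had 916, 425 and 214 CPM in the shallow and 195, 148 and 120 in the deep sums, a log2 fold change of 1.53 (SE 0.30, edgeR adjusted p = 0.000803). In niacin library 2 the shallow value rests on 6 UMIs, and without the vehicle library the log2 fold change was 0.80 with an edgeR adjusted p of 0.128. The difference between the classes was not tested.

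Gm26699 had 153, 379 and 357 CPM in shallow and 18.3, 55.4 and 54.8 in deep T and NK cells. The groups did not overlap, with a log2 fold change of 2.57 (SE 0.37, edgeR adjusted p = 3.24e-05), which passed in each of the 13 alternatives run. Phykpl had 140, 182 and 71.4 against 22, 40.6 and 33.2, also without overlap, at 1.96 (SE 0.40, edgeR adjusted p = 0.00119). Without niacin library 1 the edgeR adjusted p of Phykpl was 0.0911, and with DESeq2 it was 0.0551. Gm26917 had 381, 137 and 107 against 369, 81.2 and 118, which overlap, at −0.01 (SE 0.33, edgeR adjusted p = 0.993). Without the filter on genes and mitochondrial share Gm26917 was called higher, at 0.79 (SE 0.23, edgeR adjusted p = 0.0154).

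**Figure D5:**
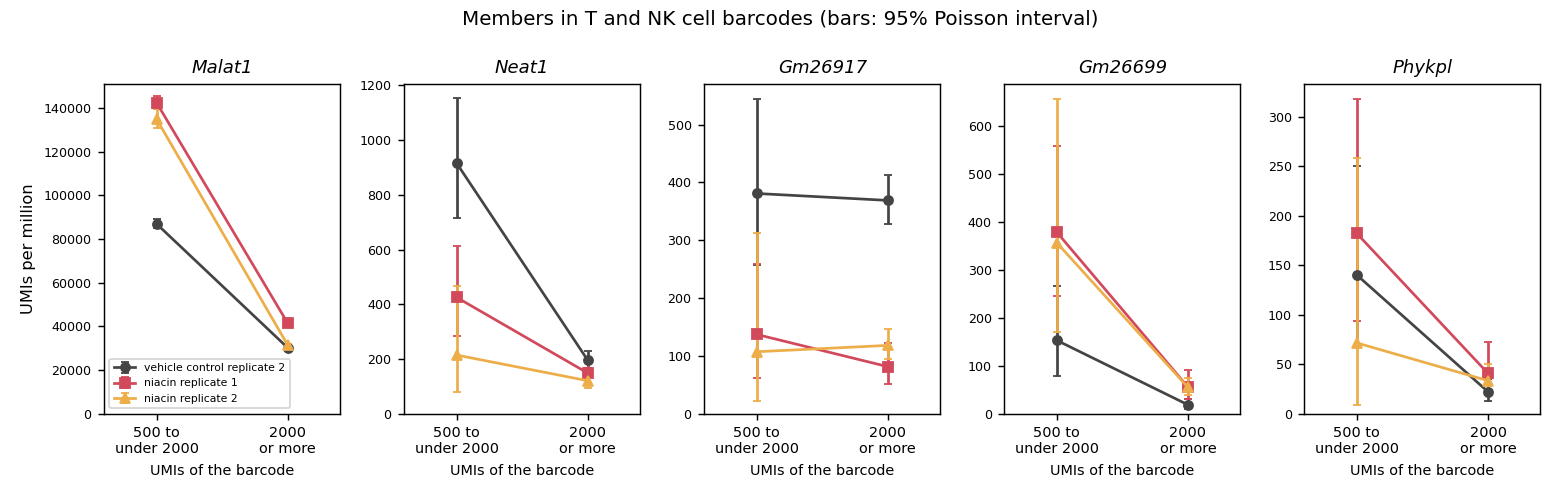
CPM (vertical linear axes) of the 5 members tested in T and NK cells, for barcodes of 500 to under 2000 UMIs and of 2000 UMIs or more, with lines joining the sums of 1 library and bars for exact Poisson 95% intervals of counting error. Malat1, Neat1, Gm26699 and Phykpl are higher in the shallow sum in all 3 libraries, and Gm26917 is not.

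Several listed gene groups had members that passed the same test in T and NK cells. Ribosomal protein mRNAs were lower for 81 of 84 genes tested, with a median log2 fold change of −3.03, and the 13 mitochondrial transcripts were all higher. Of 12 mRNAs with intron retention 9 were higher and 0 lower, with a median of 1.04, and of 5 other nuclear noncoding RNAs 3 were higher and 2 lower. Xist rose by 1.36 on the log2 scale (SE 0.24, edgeR adjusted p = 0.000307) and Tsix by 1.37 (SE 0.35, edgeR adjusted p = 0.00553). Of 14 speckle and paraspeckle genes 5 were higher and 1 lower, and of 11 immediate early genes 3 were higher and 1 lower.

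Microglia mRNAs were higher as well, for 6 of 10 genes tested with a median of 1.47. Their summed share was 0.281%, 0.411% and 0.368% in the shallow and 0.192%, 0.171% and 0.209% in the deep sums. Genes of this list such as Cst3 and Ctsd are expressed by other macrophages too, and the source of these UMIs was not tested. Barcodes without a UMI of the 6 microglia markers gave a log2 fold change of 1.57 for Malat1, 1.56 for Neat1, 2.61 for Gm26699 and 2.16 for Phykpl, all past the threshold with edgeR. Of T and NK barcodes 31.9% had UMIs of 2 monocyte and macrophage markers, and the part of this in the result was not tested.

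Monocytes and macrophages and B cells had too few shallow barcodes for the minimum of 10 per sum set for these tests, and were run with an added minimum of 4. In monocytes and macrophages (82, 8 and 4 shallow against 129, 20 and 33 deep barcodes) edgeR called 2.45% of 1963 genes higher and 7.85% lower. Of 3 members tested, Malat1 was higher, with a log2 fold change of 1.37 (SE 0.20, edgeR adjusted p = 3.57e-09), and Gm26917 (1.23, SE 0.60) and Neat1 (0.62, SE 0.51) did not pass, at edgeR adjusted p = 0.177 and 0.485. The call of Malat1 was lost in 8 of 13 alternatives, with edgeR or DESeq2 adjusted p of 0.0538 to 0.566, among them DESeq2, library totals, no replicate block and leaving out niacin library 1 or 2.

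In B cells (9, 8 and 5 shallow against 11, 22 and 38 deep barcodes) edgeR called 20% of 414 genes higher and 18.8% lower, or 68 higher and 100 lower with RLE size factors in place of 83 and 78. Malat1 was higher at 1.82 (SE 0.50, edgeR adjusted p = 0.004) and Gm26917 at 1.50 (SE 0.58, edgeR adjusted p = 0.0301), the latter from 8, 3 and 1 shallow UMIs. The call of Malat1 was lost in 4 of 12 alternatives, at edgeR adjusted p of 0.404 to 0.933, without the vehicle library, without the filter on low counts and with shared barcodes kept in either way. That of Gm26917 was lost in 8 of 12, at adjusted p of 0.094 to 0.947 with edgeR or DESeq2. Neutrophils and choroid plexus epithelium had fewer shallow barcodes than the minimum and were not tested.

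Choroid plexus epithelium, the secretory lining of the ventricles, stood apart by its lack of Malat1. At 2000 UMIs or more its Malat1 shares were 146, 115 and 1224 CPM (21, 22 and 505 UMIs), against 30136, 41407 and 31400 in T and NK cells. The share was over 1% in 3 of 160 choroid plexus barcodes, all in niacin library 2. The comparison of these classes was added after the values were seen. With edgeR, 31.7% of 4979 genes were higher and 39.4% lower in choroid plexus epithelium (26, 47 and 87 barcodes), and Malat1 fell by 6.10 on the log2 scale (SE 0.37, edgeR adjusted p = 7.56e-13). Without niacin library 2 Malat1 fell by 7.78 on that scale.

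Neat1 was lower by the same test, with a log2 fold change of −1.93 (SE 0.38, edgeR adjusted p = 0.000104). Gm26917 was lower too (edgeR adjusted p = 1.17e-09), with 0, 0 and 1 UMIs in choroid plexus epithelium, so that its fitted fold change is not given. The other 7 members did not pass the filter on low counts. Of 12 mRNAs with intron retention 11 were lower and 0 higher, of 15 speckle and paraspeckle genes 12 were lower and 0 higher, and 13 of 13 mitochondrial transcripts were higher. Ribosomal protein mRNAs were lower for 81 of 86 genes and higher for 1.

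All other immune classes had more Malat1 than choroid plexus epithelium in every library. At 2000 UMIs or more microglia had 38470, 68081 and 52685 CPM of Malat1. B cells had 23774, 33366 and 36902 CPM, monocytes and macrophages 33170, 39447 and 25326, and neutrophils 29129, 28391 and 15785, in the vehicle library and niacin libraries 1 and 2. The ranges of B cells and of monocytes and macrophages overlap with that of T and NK cells, and the neutrophil values lie below it. Basophils and mast cells had 80875, 70193 and 71841, above every other of these values. Neat1 had 2353, 1218 and 479 CPM in neutrophils and 3563, 953 and 835 CPM in basophils and mast cells, the first of these from 3 barcodes. Both classes were above T and NK cells and B cells in Neat1 in every library.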

How the data were processed

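UMI counts per gene and barcode were deposited by the authors without normalization, as whole numbers for barcodes called as cells. The submitters' processing notes name Cell Ranger 3.1 and STAR with mm10, on Chromium 3′ libraries of Percoll-enriched live cells. The strand setting is not given in the sources used here.

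Barcodes that occurred in more than 1 library, those with fewer than 200 genes and those with more than 20% mitochondrial UMIs were removed, and doublets were not called. Barcodes with UMIs of at least 2 microglia markers were microglia, and each of the rest took the class of which it held the most markers, at least 2, with ties left unclassed. The members and all gene lists were chosen with earlier results of these data known. Named genes are the members, their opposite-strand partners, the 10 most alike and 5 least alike genes among those with at least 200 microglia UMIs, and up to 4 highly counted genes per list. A few genes and 1 sequence that this rule selects are not reported here. Python 3.11.15 with numpy 2.4.6, scipy 1.17.1 and pandas 2.3.3 summed counts per library, class and depth bin. Shares of single libraries have exact Poisson or Clopper-Pearson 95% intervals, for counting error alone. Where no UMI was found, the limit is that of 3 UMIs.

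Sums of at least 10 barcodes (4 in the tests added after the data were seen) were compared with edgeR 4.0.16 in R 4.3.3 (quasi-likelihood, TMM, filterByExpr, library block, Benjamini-Hochberg over all genes tested), with DESeq2 1.42.0 as an alternative. The scripts were tested on simulated data. Because of the library block, P-values rest on how the difference within a library varies over 3 pooled libraries. They do not measure the spread in level between libraries or between animals. Transcripts, coordinates and A runs came from GENCODE M21 on GRCm38, the assembly of mm10. Gene symbols were matched by gene identifier. Human, spatial and imaging data of the study were not analysed here.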

Additional observations from a re-analysis of the deposited data

How the results depend on the processing

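The sign of the log2 ratio in microglia held under every alternative run for each member with a value except Neat1, whose ratio of 1000 to under 2000 over at least 4000 UMIs turned from −0.09 to 0.02 without Malat1 in the total and ranged from −0.34 to 0.21 when single libraries were left out. The ratio of the shallowest bin for the 9 members other than Malat1 moved from 0.99 to 0.56 with shared barcodes kept. In T and NK cells the 965 calls became 450 with DESeq2, 461 to 927 with single libraries left out and 740 without the replicate block, and Gm26917 moved from −0.01 to 0.79 and was called without the filter on genes and mitochondrial share. In monocytes and macrophages the 202 calls became 81 with DESeq2, 109 without the filter on low counts, 0 with no replicate block, 0 with shared barcodes kept, 119 with them kept in their deepest library, 31 in barcodes without microglia markers and 0 to 171 with single libraries left out. At an unadjusted p under 0.05 the edgeR counts behind the 0 calls were 389 with no replicate block, 603 with shared barcodes kept and 488 without niacin library 2. In B cells the 161 calls became 99 with DESeq2, 354 without the filter on genes and mitochondrial share and 1 to 168 with single libraries left out. The cause of these changes was not tested. Thinning to 1000 in place of 500 UMIs gave 83.7% in place of 70.7% of microglia of 1000 to under 2000 UMIs with any of the 8 members, as a mean of libraries. The tests of 500 to under 1000 UMIs, the division at 1000 UMIs and B cells without microglia markers were not run, as too few barcodes were left.

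All edgeR tests paired the sums of 1 library through the replicate block. For niacin against vehicle no paired analysis was possible because they were not tested and their labels share 1 replicate number. Depth limits the rarer members, which rest on 24 to 53 microglia UMIs in the shallowest bin for Gm43221, Gm26778, Gm26699, Phykpl, B430010I23Rik and Adap2os, and spread between animals cannot be seen in pooled libraries.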

Other observations

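Gm26917 reached its highest count in 1 barcode outside all classes, with 94 of 1160 UMIs in the vehicle library. Malat1 and Neat1 reached theirs in 1 barcode with oligodendrocyte markers in the same library, with 1240 and 89 of 28368 UMIs. The highest counts of Gm43221, Gm26778, Gm26699, Phykpl, B430010I23Rik and Adap2os were 4, 14, 7, 7, 10 and 7 UMIs, each in a microglia barcode of a niacin library.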
